A study of Mus musculus with 12 samples.

Results

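Histamine and serotonin are the amines that mouse mast cells hold in their granules, and 8 genes for making, storing, taking up and breaking down these amines are described here. They were chosen by name, with earlier results of these data known. Hdc and Tph1 start the synthesis of histamine and of serotonin, and Ddc completes that of serotonin. The others are the carriers Slc18a2 and Slc6a4 and the breakdown enzymes Hnmt, Maoa and Maob. All 8 were measured, each by 1 probe set, among 19938 genes on 12 arrays. By their labels, the arrays hold RNA of bone marrow derived mast cells (BMMCs), grown from marrow of female mice aged 4 to 6 weeks in medium with the growth factors SCF (12.5 ng/ml) and IL-3 (10 ng/ml). The 4 groups of 3 arrays are ACKR2-/- cells after 10 weeks of culture, wild type (WT, C57BL/6) cells after 10 weeks, ACKR2-/- cells after 2 weeks and WT cells after 2 weeks. ACKR2 scavenges inflammatory chemokines of the CC family without classical signalling, and the deletion is carried by every cell of the mouse. The labels add that cells of 2-week cultures, which are mixed, were in some experiments enriched with an antibody to CD117, the product of Kit, without saying for which arrays. The arrays within a group are labelled as biological replicates with no mouse or culture named, so the p-values measure the spread between these arrays, which may be in part technical.

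Hdc removes the carboxyl group of histidine in 1 step to give histamine. Serotonin takes 2 steps: Tph1 hydroxylates tryptophan, the rate-limiting reaction outside the brain, and Ddc decarboxylates the product. Slc18a2 (VMAT2) is the vesicular carrier that loads both amines into granules, where they bind to the proteoglycan matrix, and Slc6a4 (SERT) returns serotonin from the medium into the cell. Hnmt methylates histamine in the cytosol, and Maoa and Maob, enzymes of the outer mitochondrial membrane, oxidise serotonin and other amines. Basophils also make histamine from Hdc, and platelets take up serotonin through Slc6a4 and store it through Slc18a2.

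The groups are named by their labels, and the values of 4 arrays went against the labelled sex and cell type. On the 3 ACKR2-/- arrays of 2 weeks and on WT 2-week array 3, the Y-linked gene Kdm5d read above Xist, while Xist read above Kdm5d on the other 8. On these 4 arrays Fcer1a, the mast cell IgE receptor chain, read 4.83 to 5.47 on the log2 scale, against 13.74 to 14.14 on the other 8. The mean of 9 mast cell markers was 6.61 to 6.76 on the 4 arrays and 12.01 to 12.55 on the 8. The mean of the B cell markers was 9.71 to 12.67 on the 4 arrays and 6.38 to 6.95 on the 8, and that of the T and NK cell markers 8.67 to 11.29 on the 4 and 6.52 to 6.98 on the 8. Ackr2, the targeted gene, read 8.35, 8.16 and 8.25 on the ACKR2-/- 10-week arrays, against 7.88, 8.26 and 8.35 on the WT 10-week arrays. At 2 weeks it read 8.39, 7.79 and 9.43 on ACKR2-/- arrays, against 8.19, 8.29 and 8.38 on WT arrays, so it separated the genotypes at neither time. Neither the deleted exons nor the stretch that the probe set reads is given in the sources used here, so this gene does not check the labels.

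Hdc, the histamine-forming enzyme (probe set 10487238), had log2 signals of 11.78, 10.30 and 9.23 on the ACKR2-/- 10-week arrays, against 12.07, 11.86 and 11.73 on the WT 10-week arrays. After 2 weeks its signals were 7.48, 7.55 and 7.61 on ACKR2-/- arrays, against 12.12, 11.76 and 7.74 on WT arrays. The 10-week ACKR2-/- arrays spread over more than 2 log2 units, with array 1 inside the WT range and arrays 2 and 3 below it, and the low WT 2-week value belongs to the array that lacks mast cell markers. By group mean the order was WT at 10 weeks (11.89 ± 0.17, SD, n = 3), WT at 2 weeks (10.54 ± 2.43), ACKR2-/- at 10 weeks (10.43 ± 1.28) and ACKR2-/- at 2 weeks (7.55 ± 0.06). The means of WT cells at 2 weeks and ACKR2-/- cells at 10 weeks differ by less than the SD of either.

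Tph1, the serotonin-pathway hydroxylase (10563570), read 13.52, 13.82 and 13.85 on the ACKR2-/- 10-week arrays, against 13.63, 13.50 and 13.36 on the WT 10-week arrays. After 2 weeks the values were 6.28, 6.24 and 6.29 on ACKR2-/- arrays, against 13.67, 13.75 and 6.37 on WT arrays. It thus had 2 levels and no value between: 13.36 to 13.85 on the 8 arrays with mast cell markers and 6.24 to 6.37 on the other 4. By group mean, ACKR2-/- at 10 weeks (13.73 ± 0.19) and WT at 10 weeks (13.49 ± 0.14) stood above WT at 2 weeks (11.26 ± 4.24) and ACKR2-/- at 2 weeks (6.27 ± 0.03). The first 2 of these groups overlap. Ddc, which turns the Tph1 product into serotonin (10384378), did not share these levels. It read 7.68, 7.52 and 7.50 on the ACKR2-/- 10-week arrays, against 8.91, 7.88 and 7.74 on the WT 10-week arrays. The 2-week values were 7.25, 7.36 and 6.90 on ACKR2-/- arrays, against 8.37, 7.67 and 7.58 on WT arrays. The values of Ddc on the 8 arrays with mast cell markers (7.50 to 8.91) overlap those on the other 4 (6.90 to 7.58). By group mean the order was WT at 10 weeks (8.17 ± 0.64), WT at 2 weeks (7.87 ± 0.43), ACKR2-/- at 10 weeks (7.57 ± 0.10) and ACKR2-/- at 2 weeks (7.17 ± 0.24), and each of the first 3 lies within the larger SD of its neighbour.

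Slc18a2, the granule carrier (10464370), read 13.63, 13.68 and 13.69 on the ACKR2-/- 10-week arrays, against 13.51, 13.31 and 13.55 on the WT 10-week arrays. At 2 weeks it read 7.33, 7.02 and 6.88 on ACKR2-/- arrays, against 13.42, 13.45 and 7.12 on WT arrays. Like Tph1 it had 1 high level (13.31 to 13.69) on the 8 arrays with mast cell markers and 1 low level (6.88 to 7.33) on the other 4, and its spread over the ACKR2-/- 10-week arrays was small (13.67 ± 0.03, SD, n = 3). Slc6a4, the carrier of the outer membrane (10378816), read 9.11, 8.46 and 8.22 on the ACKR2-/- 10-week arrays, against 9.19, 9.69 and 9.03 on the WT 10-week arrays. The 2-week signals were 6.82, 6.77 and 7.12 on ACKR2-/- arrays, against 9.15, 9.75 and 6.75 on WT arrays. On the 8 arrays with mast cell markers Slc6a4 thus covered 8.22 to 9.75, with ACKR2-/- 10-week arrays 2 and 3 at the bottom, and on the other 4 it covered 6.75 to 7.12. Its group means were 9.30 ± 0.34 in WT cells at 10 weeks, 8.60 ± 0.46 in ACKR2-/- cells at 10 weeks, 8.55 ± 1.59 in WT cells at 2 weeks and 6.90 ± 0.19 in ACKR2-/- cells at 2 weeks, of which the middle pair differs by less than either SD.

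Among the breakdown enzymes, Maob (10603746) had the pattern of Tph1 and Slc18a2. It read 12.73, 11.30 and 12.78 on the ACKR2-/- 10-week arrays, against 12.86, 12.25 and 12.13 on the WT 10-week arrays. After 2 weeks Maob read 6.07, 5.98 and 6.12 on ACKR2-/- arrays, against 13.01, 12.83 and 5.80 on WT arrays. Array 2 of the ACKR2-/- 10-week group was the lowest of the 8 arrays with mast cell markers, and the 10-week means, 12.27 ± 0.84 in ACKR2-/- and 12.41 ± 0.39 in WT cells, differ by less than either SD. The related enzyme Maoa (10598771) read 6.62, 5.53 and 5.88 on the ACKR2-/- 10-week arrays, against 7.06, 6.83 and 6.70 on the WT 10-week arrays. At 2 weeks Maoa read 5.76, 5.75 and 5.76 on ACKR2-/- arrays, against 6.46, 6.65 and 5.78 on WT arrays. For Maoa, 2 of the ACKR2-/- 10-week arrays were as low as, or close to, the 4 arrays without mast cell markers (5.75 to 5.78), and the group means ran in the order WT at 10 weeks (6.86 ± 0.18), WT at 2 weeks (6.30 ± 0.45), ACKR2-/- at 10 weeks (6.01 ± 0.56) and ACKR2-/- at 2 weeks (5.76 ± 0.01). The histamine methyltransferase Hnmt (10480459) read 6.13, 5.67 and 5.49 on the ACKR2-/- 10-week arrays, against 6.09, 6.57 and 6.45 on the WT 10-week arrays, and at 2 weeks 5.70, 5.43 and 5.49 on ACKR2-/- arrays, against 5.96, 6.46 and 5.40 on WT arrays. All Hnmt values lay within 5.40 to 6.57, and the deposited values carry no detection call that would tell such low signals from background.

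**Figure D1:**
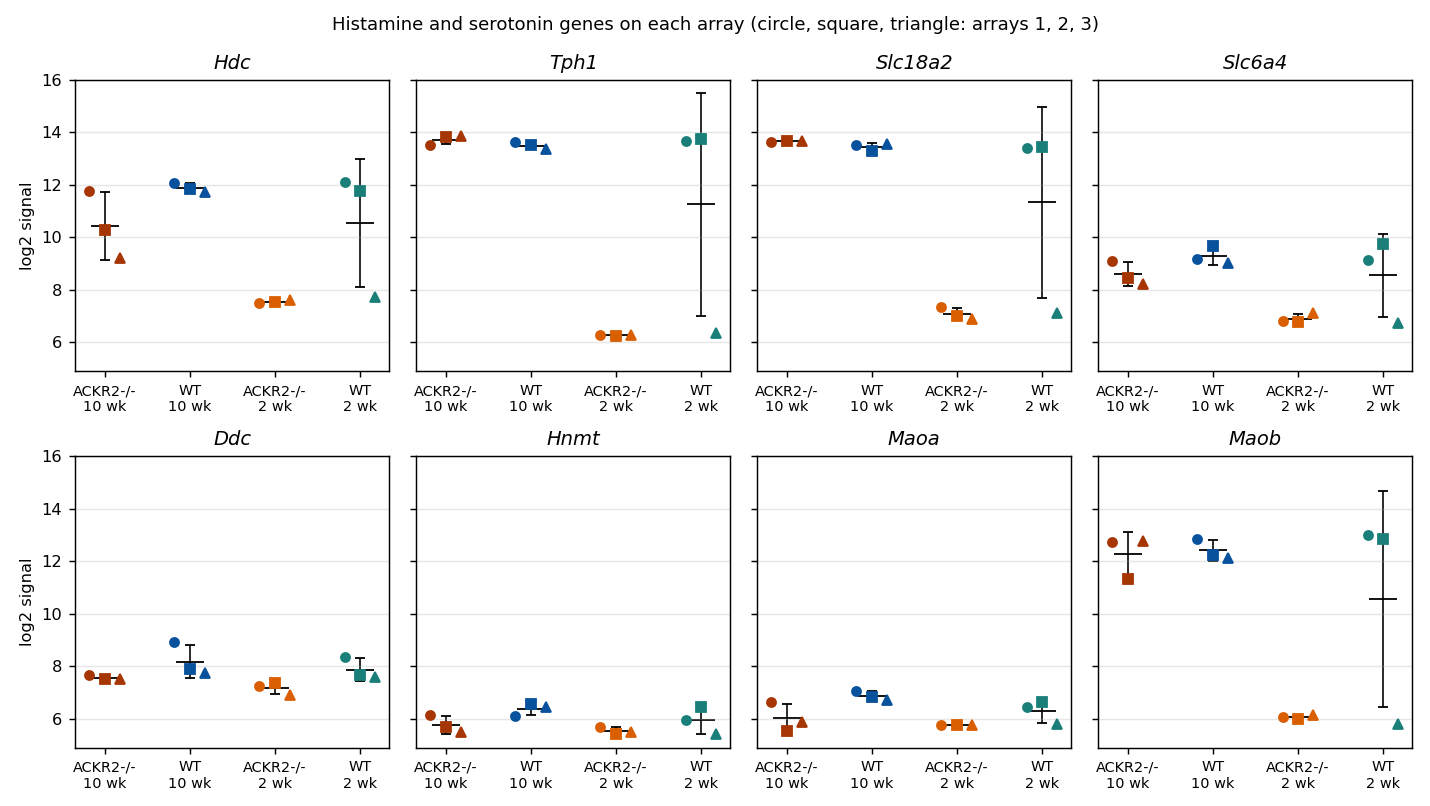
Log2 signal (y axis) of the 8 genes on every array, with groups along the x axis, circles, squares and triangles for arrays 1, 2 and 3, and bars for the mean and SD of 3 arrays. Tph1, Slc18a2 and Maob sit at 2 separate levels, the low level on the 3 ACKR2-/- arrays and WT array 3 of 2 weeks, and Hdc spreads from 9.23 to 11.78 over the ACKR2-/- 10-week arrays.

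The promoter bases of the 3 genes that make and pack the amines are shown because Hdc parted from Tph1 and Slc18a2 on the ACKR2-/- 10-week arrays although all 3 were high on every WT array of that time. Each line holds the 250 bases before a RefSeq transcript start in the GRCm38.p6 mouse assembly, 5′ to 3′ on the gene's strand; Tph1 has 2 annotated starts. Capitals mark a GATAA motif, a form of the site that GATA factors bind, read here on the opposite strand as TTATC. Other forms of that site, such as GATAG, were not searched for and are not marked, so their absence is not shown.
Hdc promoter, chr2:126618679-126618928, minus strand: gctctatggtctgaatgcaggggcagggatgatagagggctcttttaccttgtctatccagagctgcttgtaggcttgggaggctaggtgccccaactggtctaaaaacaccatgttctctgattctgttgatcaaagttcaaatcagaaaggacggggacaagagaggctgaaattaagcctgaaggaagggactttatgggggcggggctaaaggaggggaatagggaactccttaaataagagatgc
Tph1 promoter, chr7:46667378-46667627, minus strand: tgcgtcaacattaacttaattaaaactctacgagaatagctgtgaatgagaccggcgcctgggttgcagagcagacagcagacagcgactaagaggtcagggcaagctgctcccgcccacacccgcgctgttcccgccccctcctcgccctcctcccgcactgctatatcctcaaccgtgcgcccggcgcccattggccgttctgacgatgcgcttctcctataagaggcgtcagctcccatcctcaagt
Tph1 promoter, chr7:46672538-46672787, minus strand: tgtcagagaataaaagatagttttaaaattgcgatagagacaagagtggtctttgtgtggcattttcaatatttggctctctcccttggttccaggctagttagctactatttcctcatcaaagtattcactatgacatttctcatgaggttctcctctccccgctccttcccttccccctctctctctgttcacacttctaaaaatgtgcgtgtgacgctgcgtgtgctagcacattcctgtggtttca
Slc18a2 promoter, chr19:59260628-59260877, plus strand: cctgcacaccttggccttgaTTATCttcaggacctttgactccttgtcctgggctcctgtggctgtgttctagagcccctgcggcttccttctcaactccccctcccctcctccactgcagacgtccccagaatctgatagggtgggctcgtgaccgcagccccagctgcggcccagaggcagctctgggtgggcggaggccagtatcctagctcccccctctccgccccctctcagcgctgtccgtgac
The Slc18a2 window held GATAA, beginning 230 bases before the start, and so did the Maoa window, 238 bases before its start. Neither Tph1 window nor the Hdc window held it. The windows were searched on both strands for GATAA, for the E-boxes CATGTG and CACGTG, and for TATAAA, and no window of Hdc, Tph1 or Hnmt held any of them. Slc6a4 held 1 CATGTG, 48 bases before its start, and 1 of the 2 Ddc windows held TATAAA. Of the 32851 mouse promoter windows of this length, 22.6% held GATAA, 12.3% CATGTG, 6.02% CACGTG and 12.4% TATAAA. Windows were found for 7 of the 8 genes, 9 in all, with none for Maob. Gata2, a GATA factor of mast cells, read 13.77, 13.65 and 13.71 on the ACKR2-/- 10-week arrays, against 13.77, 13.72 and 13.75 on the WT 10-week arrays, ranges that overlap. A part of these motifs or of GATA factors in the Hdc difference was not tested.

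The comparison of ACKR2-/- with WT cells at 10 weeks asks whether loss of the receptor changes the mature culture, and all 6 of its arrays carried mast cell markers. Hdc, the histamine enzyme, differed by −1.45 ± 0.55 (SE) on the log2 scale, a 2.74-fold lower mean signal in ACKR2-/- cells, with a 95% interval of −2.75 to −0.16. The differences were −0.85 ± 0.27 for Maoa, −0.71 ± 0.26 for Slc6a4, −0.61 ± 0.20 for Hnmt and −0.61 ± 0.29 for Ddc. The serotonin hydroxylase Tph1 and the granule carrier Slc18a2 had slightly higher means in ACKR2-/- cells, by 0.23 ± 0.14 (95% interval −0.10 to 0.56) and 0.21 ± 0.12 (−0.07 to 0.48), and Maob differed by −0.14 ± 0.40 (−1.09 to 0.80). No member passed the test: limma with Benjamini-Hochberg adjustment over all genes gave adjusted p = 0.433 for Hdc, 0.401 for Maoa, 0.430 for Slc6a4, 0.404 for Hnmt, 0.524 for Ddc, 0.628 for Tph1, 0.595 for Slc18a2 and 0.965 for Maob. Of all 19938 genes 0 passed (0%), the lowest adjusted p was 0.380, and 2102 genes had an unadjusted p under 0.05 against 997 that evenly spread p-values would give. Hdc, Maoa, Slc6a4 and Hnmt were among those 2102 genes. The intervals of Tph1 and Slc18a2 exclude a change as large as that of Hdc, while that of Maob does not exclude a fall of 1 log2 unit.

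The members' median difference at 10 weeks was −0.61, beside 0.01 over all genes, with 6 of 8 below 0. The groups did not overlap for 3 of 8 members, Ddc and Maoa lower and Slc18a2 higher, where 14.6% of all genes did not overlap, 5.98% with ACKR2-/- lower and 8.61% with ACKR2-/- higher. All 3 gaps are narrow: Slc18a2 read 13.63 on the lowest ACKR2-/- array against 13.55 on the highest WT array, while the highest ACKR2-/- array read 7.68 for Ddc and 6.62 for Maoa, against 7.74 and 6.70 on the lowest WT array. The Ddc difference leans on WT array 1, and with 1 array left out it ran from −0.82 (without WT array 3) to −0.24 (without WT array 1).

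The ACKR2-/- 10-week arrays differed among themselves, array 1 lying nearest to the WT mean for every member. This was not particular to the members. Over all genes, array 1 correlated most with WT 2-week array 2 (Pearson r = 0.991), and arrays 2 and 3 with each other (0.994). WT 10-week array 3 correlated most with ACKR2-/- 10-week array 1 (0.989). Relative to the WT mean, Hdc stood at −0.11 on array 1, −1.59 on array 2 and −2.66 on array 3. On arrays 1, 2 and 3 Slc6a4 stood at −0.19, −0.84 and −1.09, Hnmt at −0.24, −0.70 and −0.88, and Maoa at −0.24, −1.34 and −0.98. For Ddc array 1 was also the nearest to WT, but the 3 arrays lay close together at −0.49, −0.65 and −0.67. Maob stood at 0.32, −1.11 and 0.36. Tph1 stood at 0.02, 0.33 and 0.35 and Slc18a2 at 0.17, 0.23 and 0.23 on the same arrays. The Hdc difference of −1.45 became −0.85 without array 3 (limma adjusted p = 0.983) and −2.12 ± 0.30 without array 1 (limma adjusted p = 0.0147), the range when each of the 6 arrays was left out in turn. Maoa, at −1.16 ± 0.18 with a limma adjusted p of 0.0218, was the other member to pass without array 1, where 2.04% of all genes were called lower (406 of 506 called). Leaving out the array nearest to WT for these genes widens their difference by construction, so this fit is given as a value and not as support for a change, and with all arrays no member passed. Slc6a4 (adjusted p = 0.0843) and Hnmt (adjusted p = 0.0899) did not pass in that limma fit, in which the pair of ACKR2-/- arrays shares its estimate of the spread with the WT arrays.

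**Figure D2:**
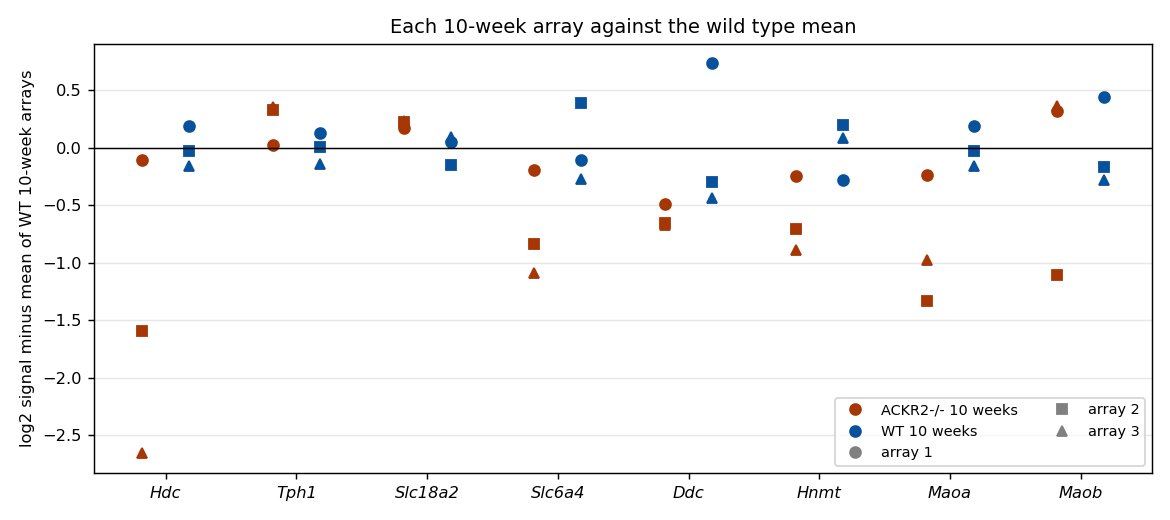
Log2 signal minus the mean of the 3 WT 10-week arrays (y axis) for each gene (x axis) on the ACKR2-/- arrays, left in each pair, and the WT arrays, with symbols for arrays 1 to 3. For Hdc the ACKR2-/- arrays lie at −0.11, −1.59 and −2.66, while for Tph1 and Slc18a2 they lie above 0.

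The distance between Hdc and the serotonin and storage genes can be read within each array, which removes any scaling of the array as a whole; this measure was added after the values had been seen. Hdc minus Tph1 was −1.74, −3.53 and −4.62 on the ACKR2-/- 10-week arrays, against −1.55, −1.64 and −1.63 on the WT 10-week arrays. Hdc minus Slc18a2 was −1.85, −3.39 and −4.46 on the ACKR2-/- arrays, against −1.44, −1.45 and −1.82 on the WT arrays. Both distances were more negative on every ACKR2-/- array than on every WT array, with mean differences of −1.69 and −1.66, and no test is given because the pair of distances was chosen for this gap. The lack of overlap rests on a narrow margin for Slc18a2, where ACKR2-/- array 1 (−1.85) stood next to WT array 3 (−1.82).

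The averages of several marker lists of other blood cells were lowest on ACKR2-/- 10-week arrays 2 and 3, the arrays with the lowest Hdc. Their part in the differences was not tested. In RNA of a whole culture, fewer cells of a type and less RNA per cell cannot be told apart. The basophil proteases Mcpt8 and Prss34 read 11.81, 7.41 and 7.02 and 11.30, 7.52 and 7.51 on ACKR2-/- arrays 1, 2 and 3, against 12.94, 13.24 and 12.51 and 12.68, 12.43 and 12.26 on the WT arrays. The arrays with the lowest Hdc thus also had the lowest basophil proteases. Among the other genes of the basophil list, Cd200r3 read 12.67, 11.69 and 11.88 on the ACKR2-/- arrays, against 12.36, 12.33 and 12.12 on the WT arrays, so that arrays 2 and 3 again lay below every WT array. Gm5150 read 7.45, 6.54 and 6.42 on the ACKR2-/- arrays, against 5.98, 8.80 and 7.70 on the WT arrays, with overlap. Csf2rb read 13.91, 13.91 and 13.97 on the ACKR2-/- arrays, against 13.82, 13.80 and 13.82 on the WT arrays, and Itga2b 12.66, 13.08 and 13.07 against 12.55, 12.53 and 12.63, so neither was lower on the ACKR2-/- arrays. As a list, the basophil markers averaged 11.63, 10.02 and 9.98 on ACKR2-/- arrays, against 11.72, 12.19 and 11.84 on WT arrays, with 2, 3 and 3 of 6 genes below the lowest WT array. The share of all genes below the lowest WT array on a single ACKR2-/- array was not counted. Such counts, here and for the lists that follow, therefore have no background to be read against. The mast cell markers averaged 12.55, 12.19 and 12.21 on ACKR2-/- arrays, against 12.21, 12.01 and 12.35 on WT arrays, groups that overlap. Of these 9 genes, 0, 3 and 3 lay below the lowest WT array on ACKR2-/- arrays 1, 2 and 3. Among them Tpsb2 read 12.29, 11.06 and 10.93, against 12.19, 12.02 and 12.04 on the WT arrays. Mrgprb1, also of this list, read 9.19 on ACKR2-/- array 1 and 9.29 on WT array 3, where the list's averages were highest. On the remaining 10-week arrays Mrgprb1 read 6.47 to 6.59, so the averages lean on this gene. By mean difference, 6 of the 9 genes were above 0 and 3 below.

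The platelet chemokine gene Pf4 read 10.20, 6.99 and 6.97 on the ACKR2-/- arrays, against 8.41, 11.71 and 9.93 on the WT arrays. Megakaryocyte and platelet markers averaged 10.15, 8.04 and 8.28 on ACKR2-/- arrays, against 9.56, 11.25 and 10.11 on WT arrays, with 0, 4 and 3 of 4 genes below the lowest WT array. Monocyte and macrophage markers averaged 9.49, 7.47 and 7.28 on ACKR2-/- arrays, against 9.07, 10.44 and 9.75 on WT arrays, with 1, 10 and 10 of 11 genes below the lowest WT array. Neutrophil markers averaged 7.80, 6.87 and 6.69 on ACKR2-/- arrays, against 9.35, 10.55 and 8.28 on WT arrays, with 7, 9 and 10 of 11 below. Eosinophil markers averaged 7.69, 6.99 and 7.26 on ACKR2-/- arrays, against 9.01, 8.95 and 7.87 on WT arrays, with 3, 4 and 4 of 5 below. ACKR2-/- arrays 2 and 3, on which Hdc, Slc6a4, Hnmt and Maoa were lowest, were also those with the lowest basophil, megakaryocyte, macrophage, neutrophil and eosinophil averages, and the neutrophil and eosinophil averages of array 1 lay below every WT array as well. Within the WT group these averages did not all follow Hdc, but Hdc ranged there only from 11.73 to 12.07, so their order says little. WT array 1 had the highest Hdc (12.07) and eosinophil average (9.01) but the lowest basophil (11.72), megakaryocyte (9.56) and macrophage (9.07) averages. The neutrophil average was highest on WT array 2 (10.55). No gene of these or the other marker lists passed at 10 weeks, and the B cell, T and NK cell, dendritic cell, erythroid and stromal lists had median differences between −0.12 and −0.01.

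**Figure D3:**
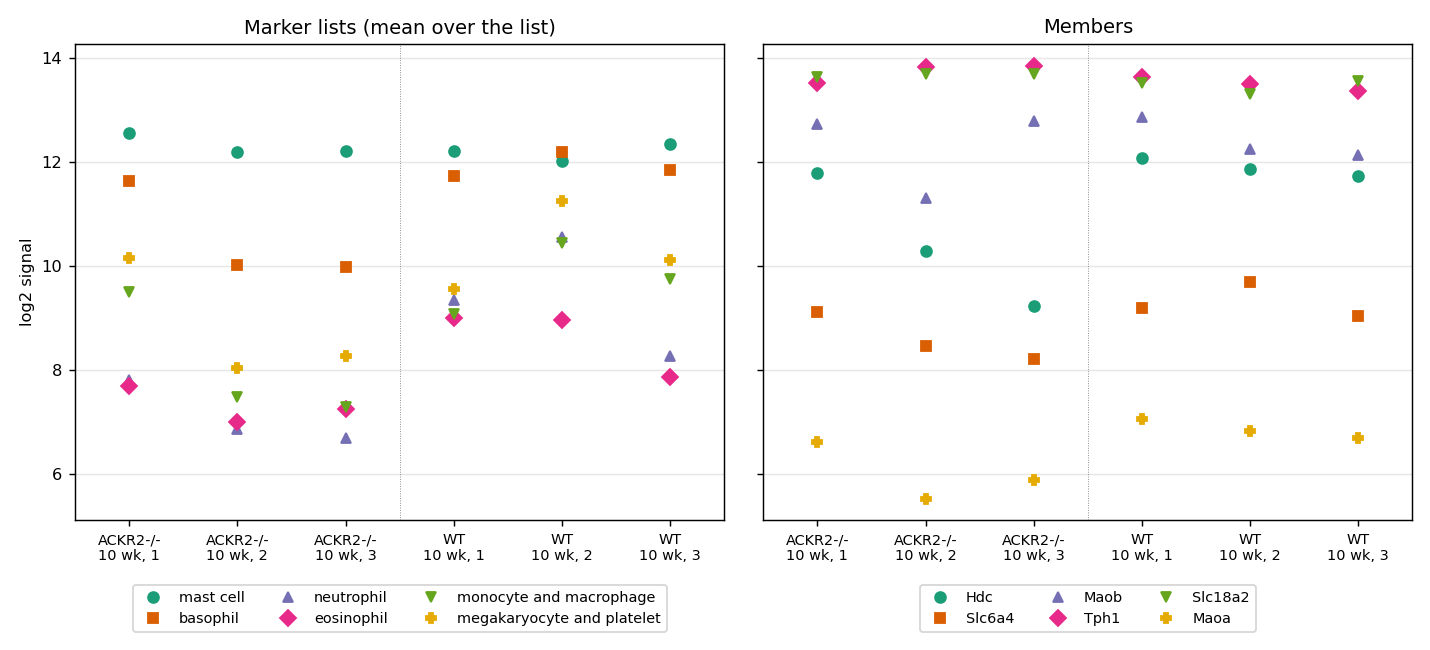
Log2 signal (y axis) on each 10-week array (x axis, ACKR2-/- arrays left of WT arrays) for the mean of 6 marker lists (left panel) and for 6 of the genes described (right panel). Tph1, Slc18a2 and the mean of the mast cell markers differ little between the arrays. The means of the basophil, macrophage and megakaryocyte markers, and Hdc, are lowest on ACKR2-/- arrays 2 and 3.

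The second comparison of the genotypes, at 2 weeks, sets 3 ACKR2-/- arrays without mast cell markers against 2 WT arrays with them and 1 without. All 8 members had a lower mean on the ACKR2-/- arrays. The log2 differences were −4.99 ± 2.05 (SE) for Tph1, −4.49 ± 1.99 for Maob, −4.25 ± 1.77 for Slc18a2, −2.99 ± 1.18 for Hdc, −1.65 ± 0.78 for Slc6a4, −0.70 ± 0.25 for Ddc, −0.54 ± 0.23 for Maoa and −0.41 ± 0.27 for Hnmt. No member and no gene passed (0%), with limma adjusted p of 0.464 for every member but Hnmt (0.520), and 1454 genes had an unadjusted p under 0.05, Hdc and Ddc among them. The groups did not overlap for 4 of 8 members, Hdc, Tph1, Ddc and Maoa, where 8.60% of all genes were lower without overlap. The members' median difference was −2.32, beside −0.02 over all genes.

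Without WT array 3, 7 of 8 members fell at 2 weeks, where 14.7% of all genes did (2925 genes). The limma adjusted p was 1.16e-05 for Tph1 (−7.44 ± 0.08), 1.51e-05 for Maob (−6.86 ± 0.10), 3.45e-05 for Slc18a2 (−6.36 ± 0.15) and 6.79e-05 for Hdc (−4.39 ± 0.13). Slc6a4 (−2.55 ± 0.22, adjusted p = 0.00137), Maoa (−0.80 ± 0.09, 0.0039) and Hnmt (−0.68 ± 0.18, 0.0493) passed by limma with smaller differences, and Ddc (−0.85 ± 0.25, 0.0667) did not. In this fit every ACKR2-/- array lacks mast cell markers and both WT arrays have them, so genotype and the presence of mast cell transcripts cannot be told apart. Leaving out the WT array without those markers widens the difference of genes that share their pattern by construction. This fit is therefore given as values and not as support for a genotype difference. Of all members, Ddc differed most between the 2 remaining WT arrays of 2 weeks (8.37 and 7.67).

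Over culture time in ACKR2-/- cells, 5 of 8 members rose between 2 and 10 weeks and none fell, where 15.0% of all genes rose and 10.1% fell. Tph1 was higher by 7.46 ± 0.11 (SE) on the log2 scale at 10 weeks, with a limma adjusted p of 9.28e-07. Slc18a2 was higher by 6.59 ± 0.13 (adjusted p = 1.77e-06), and Maob by 6.21 ± 0.39 (adjusted p = 0.000157), in the same limma fit. These were the largest changes of the 8, and since the 2-week signals they are set against are low and carry no detection call, their size depends on that low level. Hdc was higher by 2.89 ± 0.60 (limma adjusted p = 0.016), and Slc6a4 by 1.69 ± 0.24 (limma adjusted p = 0.00372). Ddc (0.40 ± 0.14, adjusted p = 0.084), Maoa (0.26 ± 0.27, 0.534) and Hnmt (0.22 ± 0.18, 0.418) did not pass the limma test. All 10-week values lay above all 2-week values for 6 of 8 members, Hnmt and Maoa being the exceptions, where this held for 26.7% of all genes. The members' median difference was 2.29, beside 0.06 over all genes. This comparison shares its 10-week arrays with the comparison of the genotypes at that time.

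The mast cell markers themselves rose over the same arrays, 8 of 9 with a median difference of 5.40, and their part in the members' rise was not tested. Markers of other cells fell: 5 of 6 for B cells (median −4.04), 5 of 8 for T and NK cells (median −3.82) and 6 of 11 for monocytes and macrophages (median −2.37). Kdm5d read above Xist on all 3 ACKR2-/- 2-week arrays and Xist above Kdm5d on all 3 of 10 weeks. Culture time, the cells on the array and the source of the RNA therefore cannot be told apart in this comparison. The low level belongs to 3 arrays without mast cell markers, and no fit without them is possible in this comparison. Fitted together with all 12 arrays, which takes in the spread of the WT 2-week group, 3 of 8 members rose (10.5% of all genes), since Hdc (adjusted p = 0.0723) and Slc6a4 (adjusted p = 0.0873) no longer passed by limma. Hdc also lost its call without ACKR2-/- 2-week array 1 (limma adjusted p = 0.0567), 2-week array 2 (0.0576) or 10-week array 2 (0.0538).

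In WT cells, no member and no gene (0%) passed between 2 and 10 weeks, with a limma adjusted p of 0.974 for all 8 members and 576 genes at an unadjusted p under 0.05. The mean differences were 2.23 ± 1.93 for Tph1, 2.13 ± 1.66 for Slc18a2, 1.87 ± 1.88 for Maob, 1.35 ± 1.11 for Hdc, 0.75 ± 0.75 for Slc6a4, 0.56 ± 0.25 for Maoa, 0.43 ± 0.29 for Hnmt and 0.30 ± 0.37 for Ddc. They rest on WT 2-week array 3. Without it the differences were −0.22 ± 0.15 for Tph1, 0.02 ± 0.15 for Slc18a2, −0.51 ± 0.24 for Maob, −0.05 ± 0.18 for Hdc and −0.15 ± 0.26 for Slc6a4, again with no gene called. Tph1, Maob, Hdc and Slc6a4 thus lost their positive difference without that array, while Maoa (0.31), Hnmt (0.16) and Ddc (0.16) kept one. Only Maoa had all 10-week values above all 2-week values, 1 of 8 members, where 5.29% of all genes did.

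Whether the genotype difference itself changed with culture time was tested as an interaction over all 12 arrays. Tph1 had a difference of 0.23 at 10 weeks and −4.99 at 2 weeks, an interaction of 5.23 ± 2.15 (SE), and Slc18a2 one of 4.46 ± 1.86, each with a limma adjusted p of 0.424. For Maob it was 4.35 ± 2.14 (adjusted p = 0.463), for Hdc 1.54 ± 1.40 (0.740), for Slc6a4 0.94 ± 0.87 (0.746), for Ddc 0.10 ± 0.43 (0.967), for Hnmt −0.21 ± 0.36 (0.899) and for Maoa −0.31 ± 0.39 (0.840), all by limma. No gene passed (0%), and 2271 genes had an unadjusted p under 0.05. Without WT 2-week array 3, 5 of 8 members passed with a positive interaction, where 9.78% of all genes did. These were Tph1 (7.67 ± 0.17), Maob (6.72 ± 0.52), Slc18a2 (6.57 ± 0.19), Hdc (2.94 ± 0.72) and Slc6a4 (1.84 ± 0.39), with limma adjusted p between 2.82e-09 and 0.0197. In that fit every ACKR2-/- 2-week array lacks mast cell markers and both WT 2-week arrays have them, so the interaction and the presence of mast cell transcripts cannot be told apart. Leaving out that array widens such interactions by construction, so they too are given as values and not as support. Over all 12 arrays the mast cell markers moved the same way, 9 of 9 with an interaction above 0 and a median of 3.83.

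Other genes of amine handling were followed in 7 lists, of which 92 of 101 different genes were measured. In ACKR2-/- cells over time, 15.0% of all genes rose and 10.1% fell, the shares against which each list's count is to be read. Cofactor supply had 4 genes higher and none lower of 11: Pdxk, which makes the pyridoxal phosphate that Hdc and Ddc need, rose by 1.89 ± 0.07, and Gch1, which starts the synthesis of the tetrahydrobiopterin that Tph1 needs, by 2.33 ± 0.21. Its feedback regulator Gchfr rose by 0.68 ± 0.15 and the recycling enzyme Qdpr by 0.53 ± 0.11. The list's median was 0.31, beside 0.06 over all genes. Of 13 other enzymes of amine breakdown and transfer, Aldh2 (2.11 ± 0.48) and Sult1a1 (2.06 ± 0.57) rose and Aoc2 (−1.12 ± 0.14) and Aldh1b1 (−0.64 ± 0.17) fell, which are shares close to those over all genes. None of 9 further amine transporters passed, the lowest p belonging to Slc6a2, the noradrenaline carrier (0.33 ± 0.11, limma adjusted p = 0.0736), and Slc22a2 (−0.36 ± 0.12, limma adjusted p = 0.0828).

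Of the 4 histamine receptors 1 rose in ACKR2-/- cells over time, Hrh4, by 5.85 ± 0.11 with a limma adjusted p of 1.69e-06. It read 11.58, 11.57 and 11.65 on the ACKR2-/- 10-week arrays, against 11.04, 10.74 and 11.25 on the WT 10-week arrays, and at 2 weeks 5.76, 5.57 and 5.93 on ACKR2-/- arrays, against 10.89, 10.71 and 5.84 on WT arrays. Hrh4, the receptor through which histamine draws mast cells, had its high level on the same 8 arrays as Tph1 and Slc18a2. Of 14 serotonin receptors, Htr2a (1.54 ± 0.19) and Htr2b (0.47 ± 0.10) rose and none fell, a share that rose close to the 15.0% over all genes.

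Tryptophan and histidine uptake and competing use had 2 genes higher and 8 lower of 22, with a median of −0.12. The amino acid carrier Slc7a8 (4.40 ± 0.24) and the heavy chain it pairs with, Slc3a2 (1.16 ± 0.08), rose, and the kynurenine pathway enzyme Kmo (−5.03 ± 0.47) and the carrier Slc43a2 (−0.84 ± 0.13) fell. Kynu and Haao, which act on later products of that pathway, also fell (−3.08 and −2.81) and are named because of these values. Ido1, Ido2 and Tdo2, which use tryptophan itself, had ACKR2-/- means of 6.73, 6.81 and 5.30 at 2 weeks. At 10 weeks these means were 6.48, 7.06 and 5.30. Granule matrix and vesicle acidification had 12 genes higher and 1 lower of 19, with a median of 0.85. Cpa3, a granule protease, rose by 7.81 ± 0.07, Tpsb2, a tryptase, by 4.67 ± 0.36, and Ndst2 and Hs2st1, which sulfate the granule heparin that binds histamine, by 2.97 ± 0.10 and 1.43 ± 0.10, while the chloride exchanger Clcn3 fell (−1.22 ± 0.34). These changes, too, are between arrays without and with mast cell markers, and Cpa3 and Tpsb2 are themselves among the 9 mast cell markers.

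**Figure D4:**
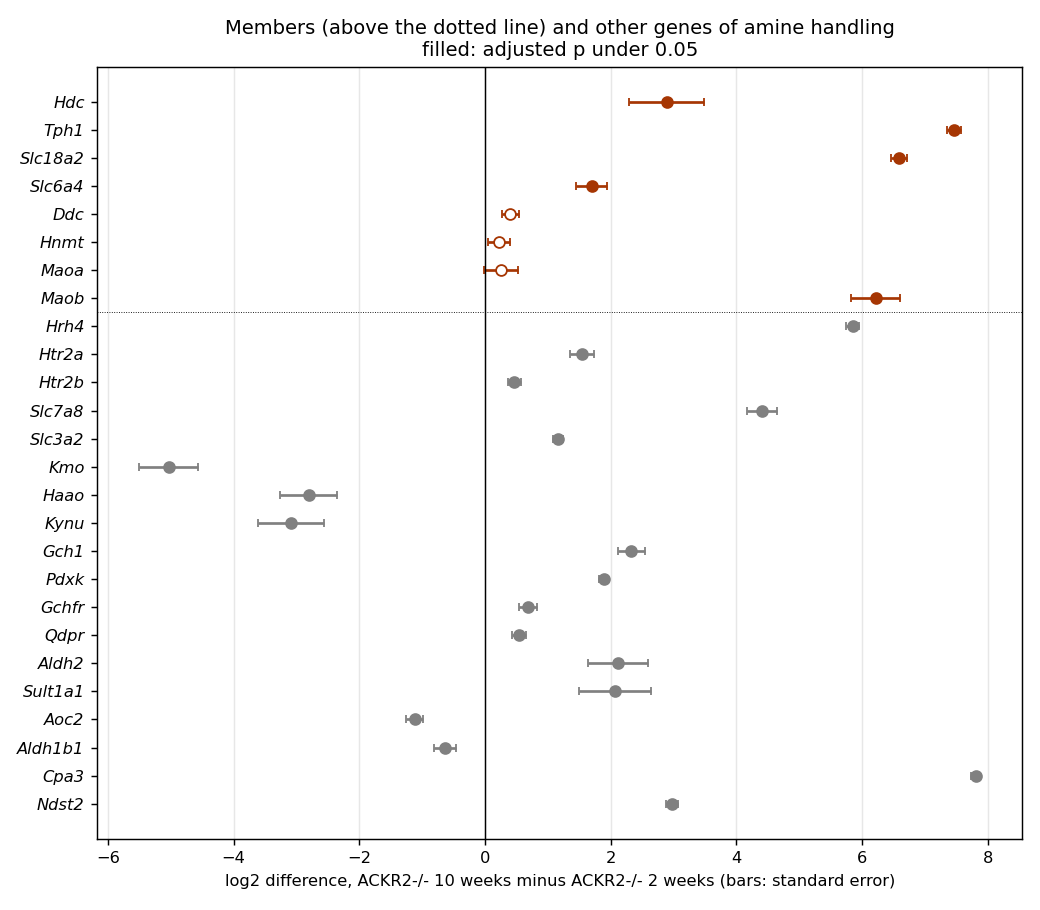
Log2 difference, ACKR2-/- 10 weeks minus ACKR2-/- 2 weeks (x axis, bars for the standard error), of the 8 genes above the dotted line and of 18 other genes of amine handling named in the text, with filled points for a limma adjusted p under 0.05. Tph1, Slc18a2 and Maob lie between 6.21 and 7.46, beside Hrh4 at 5.85 and Cpa3 at 7.81, while Ddc, Hnmt and Maoa lie near 0.

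At 10 weeks 0 of the 92 list genes passed between the genotypes. The histamine receptor gene Hrh4 differed by 0.59 ± 0.15, without overlap of the groups (limma adjusted p = 0.380), and Hrh2 by 0.08 ± 0.17 (limma adjusted p = 0.945). The serotonin receptor gene Htr1b differed by −0.76 ± 0.22 and Htr2c by −0.19 ± 0.12. Hal, which deaminates histidine and so draws on the same amino acid as Hdc, differed by −0.59 ± 0.13 and Kmo by −1.46 ± 0.38. Among the cofactor genes Pdxk differed by 0.33 ± 0.15 and Gchfr by −0.32 ± 0.14. Sult1a1, which transfers sulfate to phenols and amines, differed by 2.04 ± 0.75 and Aldh1b1 by −0.66 ± 0.18. The transporter genes Slc18a1 and Slc22a4 differed by −0.40 ± 0.18 and −0.46 ± 0.21, and in the granule list Mcpt4, a chymase, by −3.22 ± 0.84 and Ndst2 by 0.40 ± 0.12. The medians of the 7 lists lay between −0.10 and 0.03, against −0.61 for the 8 genes described. The medians on both sides take in genes with low signals, such as Tdo2 in a list and Hnmt and Maoa among the 8 genes. At 10 weeks Hnmt read 5.49 to 6.57 and Maoa 5.53 to 7.06. The median of the 8 genes lies between the differences of Hnmt and Ddc, each −0.61. Single list genes, such as Mcpt4 and Kmo, differed by as much as Hdc (−1.45) or more.

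The genes most alike in pattern were found by Pearson r, as a description with no test, since arrays share the split between those with and without mast cell markers. Over 12 arrays Tph1 was most like Ms4a2, the beta chain of the mast cell IgE receptor (r = 1.000), Cpa3 (0.999) and Enah (0.999), and Slc18a2 most like Enah (0.999), Rprm (0.999) and Cyp11a1 (0.999). Maob was most like Cd33 (0.996), Trpm4 (0.995) and Emilin2 (0.994). Hdc was most like H1f2 (0.989), P4ha2 (0.985) and Serpinb2 (0.984), and Slc6a4 most like Slit2 (0.987), Plp2 (0.983) and Gla (0.982), so neither shared its nearest genes with Tph1 or Slc18a2. Ddc was most like Triqk (0.973), Cldn11 (0.950) and Ska1 (0.942). Over the 6 arrays of 10 weeks, which all carry mast cell markers, the nearest genes were Sprr2b (0.995), Zbtb10 (0.994) and Qpct (0.994) for Hdc, Pgap1 (0.997), Shtn1 (0.994) and Abcd2 (0.993) for Slc6a4, and Fgd1 (0.994), Adcy6 (0.993) and Epsti1 (0.993) for Maoa. Over the same 6 arrays they were Scimp (0.994), Plppr3 (0.993) and Hip1r (0.991) for Hnmt, B3gnt5 (0.993), Aldh1a2 (0.992) and P2ry1 (0.992) for Ddc, and Mansc1 (0.991), Adam5 (0.983) and Ccny (0.982) for Maob. Adam5 and Ccny ranged over only 0.11 and 0.23 log2 units on those 6 arrays. No gene was among the 3 nearest of 2 members there, which says little about how alike the members are, since only 3 genes are named for each. Tph1 and Slc18a2 varied too little on those arrays to be ranked.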

How the data were processed

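Per the submitters' processing notes, the authors made the deposited log2 values with RMA in Partek 6.5, a method that subtracts background, gives all arrays 1 distribution and merges probes into 35399 probe sets. The genome build is not given in the sources used here, no scanner files were used, and scan or slide batches could not be examined. Precision is limited by the number of arrays. Array medians ran from 7.76 to 7.90. The platform annotation gave 1 symbol to 21789 probe sets, several to 1621 and none to 11989. The probe set with the highest mean stood for a gene, which left 19938 genes, and 999 of them had several.

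Each pair of groups was fitted with limma 3.58.1 in R 4.3.3 on its own 6 arrays, with 4 residual degrees of freedom, and the interaction on all 12, with 8. P-values were adjusted (Benjamini-Hochberg) over all genes at a threshold of 0.05. The fits were tested on simulated data with the same spread in every group, which does not cover a group as uneven as the WT 2-week arrays. Errors are SE for differences and SD for means. The members and lists were chosen with earlier results of these data known. All 8 members are named, and from a list up to 4 genes by lowest p that passed, otherwise the 2 with the lowest p. For the members ranging over 2 log2 units on 12 arrays, or 1 on the 6 of 10 weeks, the 3 genes with the highest r are named. Predicted genes, small RNAs and olfactory genes were left out of these. Lists also cover 11 cell types. Promoters are RefSeq sequences of GRCm38.p6.

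Replicate numbers deviated together only between the WT groups, with correlations of 0.166 to 0.359 for the 3 same-numbered pairs. Alternatives were a fit of all 12 arrays, a replicate block, leaving out each array, array weights, other choices of probe set, a filter on low values, a common median and a trended variance prior.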

Additional observations from a re-analysis of the deposited data

Results flagged for a closer look

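The genotype difference of Tph1 had opposite signs at the 2 times. Every ACKR2-/- array of 10 weeks lay above the WT mean of that time, and every ACKR2-/- array of 2 weeks lay below the WT mean of that time. The difference between the 2 genotype differences was 5.23 on the log2 scale, and the limma interaction test did not pass (adjusted p = 0.424). Slc18a2 had the same reversal, with a difference of 4.46 and a limma adjusted p of 0.424. At 10 weeks the differences behind it were 0.23 for Tph1 and 0.21 for Slc18a2, neither of which passed, and at 2 weeks they were −4.99 and −4.25. The 2-week differences compare arrays without mast cell markers with a WT group of which 2 arrays have them and 1 does not.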

How the results depend on the processing

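The count of members called between the genotypes at 10 weeks, 0 of 8, was 0 to 2 when 1 array was left out and 7 with array weights, and the count of genes 0 to 506 and 9498 (9 without WT array 3, 506 without ACKR2-/- array 1). At 2 weeks 0 members became 0 to 7 with 1 array left out (7 without WT array 3) and 8 with weights, and 0 genes became 0 to 4891 and 7573. Over time in ACKR2-/- cells, 5 members became 3 with all 12 arrays in 1 fit, and 5003 genes became 3242 to 6006 with 1 array left out and 8714 with weights. In WT cells over time, weights called 4529 genes in place of 0. For the interaction, members ran from 0 to 5 and genes from 0 to 3138 with 1 array left out (29 without ACKR2-/- 10-week array 1), and weights called 4 members and 4136 genes. The weights reached 36.7, 157 and 14.4 for the 10-week, WT time and interaction fits, whose estimation stopped before it converged, so these counts carry little. The cause of the other shifts was not tested.

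Some small differences changed sign. With 1 array left out, at 10 weeks Maob ran from −0.40 to 0.34 (0.078 without WT array 1, 0.34 without ACKR2-/- array 2), and over time in ACKR2-/- cells Maoa ran from −0.050 (without 10-week array 1) to 0.50. Over time in WT cells Hdc ran from −0.052 to 2.14, Tph1 from −0.22 to 3.48, Slc6a4 from −0.15 to 1.35 and Maob from −0.51 to 3.10, each lowest without 2-week array 3, and Ddc from −0.063 (without 10-week array 1) to 0.55. With weights Ddc was −0.054 and Maob −0.38. The interaction of Ddc ran from −0.15 to 0.46, below 0 without WT 2-week array 1 (−0.15), ACKR2-/- 2-week array 3 (−0.037), WT 10-week array 2 (−0.051) or WT 10-week array 3 (−0.12). That of Hnmt ran from −0.46 to 0.064 (without WT 2-week array 3), and was 0.033 with weights. With the replicate block, ACKR2-/- cells over time kept a count of 5 members (4019 genes), WT cells over time 0 members and 0 genes, and it changed no other member call. The filter left 17762 genes. Each member has 1 probe set, so the choice of probe set does not touch its values.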
